A study of Mus musculus with 4 samples.

Results

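ATAC-seq peak lists of CD8+ T cells were searched for DNA regions that were called accessible in every condition except the resting, untreated one. Peaks of the 4 deposited lists were merged into regions wherever they overlapped by at least 1 bp on chromosomes 1 to 19 and X. A region was kept if it held a peak in unstimulated phenelzine-treated, stimulated untreated and stimulated phenelzine-treated cells and none in unstimulated untreated cells. This selection gave 944 of 15237 regions, called members below. The members were thus selected on the peak calls themselves, so presence, absence and peak strength are given as a description and carry no test.

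The cells were CD8+ lymphocytes of BALB/c mice, named as tumour-infiltrating by the series title, with 1 library for each of 4 conditions and no replicates. The unstimulated untreated cells received neither agent, and the unstimulated phenelzine cells received phenelzine alone. The stimulated untreated cells received the phorbol ester PMA together with ionomycin over 2 h, and the stimulated phenelzine cells received phenelzine with the same stimulation. The dose and duration of phenelzine, the tumour, the age of the mice and the number pooled are not stated in the labels. Differences between conditions are therefore differences between single libraries.

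Few of the genes that define the labelled cell type had a region near a gene end in these lists. Of 20 genes of the T cell receptor complex and its signalling, 4 had a region within 1 kb of a gene end in any list: Cd3d, Cd5, Fyn and Plcg1. Over all protein-coding genes, 7542 of 21627 had such a gene-end region. Within 20 kb, 12 of the 20 T cell receptor genes had a region in some list. They were 7 in unstimulated untreated, 9 in unstimulated phenelzine, 10 in stimulated untreated and 8 in stimulated phenelzine-treated cells. Cd8a and Cd8b1, which encode the 2 chains of CD8, had no region within 20 kb in any list. Marker lists of other cells had gene-end regions for 0 of 8 B cell, 0 of 7 NK cell, 0 of 12 stromal and endothelial, 1 of 10 epithelial, 1 of 6 CD4 or regulatory T cell and 5 of 13 myeloid genes. The myeloid genes had a gene-end region 0 times in unstimulated untreated, 1 in unstimulated phenelzine, 5 in stimulated untreated and 1 in stimulated phenelzine-treated cells. Within 20 kb, 9 of the 13 myeloid genes had a region in some list: 5 in unstimulated untreated, 6 in unstimulated phenelzine, 8 in stimulated untreated and 6 in stimulated phenelzine-treated cells. The other 4, Adgre1, Csf1r, Itgam and S100a9, had none in any list. Within 20 kb, some list held a region for 5 of 6 CD4 or regulatory T cell and 3 of 8 B cell genes. The same held for 3 of 7 NK cell, 4 of 10 epithelial and 5 of 12 stromal and endothelial genes. The part of other cells in the results was not tested.

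ATAC-seq uses the transposase Tn5, which inserts sequencing adapters where DNA is not covered by nucleosomes, so peaks lie mostly at promoters and enhancers. In a bulk library, more cells with an open site and a more open site per cell cannot be told apart. PMA activates protein kinase C and ionomycin raises calcium, which together replace the signal of the T cell receptor and lead to AP-1, NF-kB and NFAT. Phenelzine inhibits monoamine oxidases and the related histone demethylase LSD1, which removes activating methyl marks from histone H3. Promoters of housekeeping genes are rich in CpG dinucleotides and bind general factors such as NRF1, Ets proteins and NF-Y.

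The sequences of 9 promoters show examples of members at the base level. Of 926 members on chromosomes with such promoter windows, 467 overlapped one, and the others are not shown. They are the RefSeq promoter windows of the C57BL/6J reference genome (GRCm38.p6), from 250 bp before to 50 bp after the start site, printed 5′ to 3′ on the gene's strand. The cells came from BALB/c mice, so single bases may differ. Capitals mark the bases covered by the peaks of all 3 holding lists, and positions count the start base as 0. The first 5 come from the members with the strongest peaks and the last 4 from genes of T cell signalling and fate. Rpl37a (chr1:72711010-72711309, + strand) encodes a protein of the large ribosomal subunit. Heatr3 (chr8:88137635-88137934, + strand) has a role in ribosomal protein handling. H4c3 (chr13:23698409-23698708, − strand) encodes histone H4. Psmc5 (chr11:106255935-106256234, + strand) encodes an ATPase of the proteasome. Bub1 (chr2:127831810-127832109, − strand) encodes a kinase of the mitotic checkpoint. Junb (chr8:84978699-84978998, − strand) encodes an AP-1 subunit. Nfkbia (chr12:55492598-55492897, − strand) encodes the inhibitor of NF-kB. Hif1a (chr12:73907617-73907916, + strand) encodes the oxygen-regulated factor HIF-1α. Id3 (chr4:136143572-136143871, + strand) encodes an inhibitor of E proteins linked to naive and memory T cells.
Rpl37a: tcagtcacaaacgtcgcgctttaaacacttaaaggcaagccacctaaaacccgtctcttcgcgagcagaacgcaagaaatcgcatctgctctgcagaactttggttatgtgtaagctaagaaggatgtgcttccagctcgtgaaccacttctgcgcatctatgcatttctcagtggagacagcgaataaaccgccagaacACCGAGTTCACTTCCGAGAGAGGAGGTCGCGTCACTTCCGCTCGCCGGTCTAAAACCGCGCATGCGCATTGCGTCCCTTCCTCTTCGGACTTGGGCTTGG
Heatr3: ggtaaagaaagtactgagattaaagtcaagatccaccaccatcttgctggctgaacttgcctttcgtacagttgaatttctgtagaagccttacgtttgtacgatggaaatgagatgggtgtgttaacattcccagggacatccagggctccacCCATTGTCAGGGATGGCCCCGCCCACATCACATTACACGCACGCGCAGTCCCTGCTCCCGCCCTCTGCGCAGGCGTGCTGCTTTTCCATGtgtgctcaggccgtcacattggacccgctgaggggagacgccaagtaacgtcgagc
H4c3: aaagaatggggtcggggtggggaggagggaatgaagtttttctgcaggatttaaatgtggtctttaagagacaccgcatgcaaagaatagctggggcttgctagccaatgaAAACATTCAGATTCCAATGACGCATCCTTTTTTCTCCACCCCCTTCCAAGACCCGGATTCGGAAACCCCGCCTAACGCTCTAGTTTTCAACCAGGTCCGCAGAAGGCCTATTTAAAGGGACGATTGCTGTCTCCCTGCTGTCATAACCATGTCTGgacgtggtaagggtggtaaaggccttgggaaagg
Psmc5: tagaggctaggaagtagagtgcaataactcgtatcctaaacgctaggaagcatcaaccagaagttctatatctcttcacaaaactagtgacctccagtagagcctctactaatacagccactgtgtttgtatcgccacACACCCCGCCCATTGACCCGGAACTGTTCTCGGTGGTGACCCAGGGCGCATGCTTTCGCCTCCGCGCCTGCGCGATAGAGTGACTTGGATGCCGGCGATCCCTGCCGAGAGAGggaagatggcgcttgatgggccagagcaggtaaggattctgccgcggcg
Bub1: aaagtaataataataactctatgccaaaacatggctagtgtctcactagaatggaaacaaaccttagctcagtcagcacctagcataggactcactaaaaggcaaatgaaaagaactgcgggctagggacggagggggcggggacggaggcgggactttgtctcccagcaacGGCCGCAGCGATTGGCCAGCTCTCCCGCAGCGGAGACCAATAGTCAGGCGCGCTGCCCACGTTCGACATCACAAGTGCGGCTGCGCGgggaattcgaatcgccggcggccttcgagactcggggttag
Junb: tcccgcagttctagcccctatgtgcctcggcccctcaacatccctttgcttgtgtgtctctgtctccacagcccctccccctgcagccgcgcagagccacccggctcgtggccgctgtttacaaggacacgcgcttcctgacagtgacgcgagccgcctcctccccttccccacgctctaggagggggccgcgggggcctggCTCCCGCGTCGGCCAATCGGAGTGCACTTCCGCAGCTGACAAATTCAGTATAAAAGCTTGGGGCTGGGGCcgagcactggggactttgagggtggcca
Nfkbia: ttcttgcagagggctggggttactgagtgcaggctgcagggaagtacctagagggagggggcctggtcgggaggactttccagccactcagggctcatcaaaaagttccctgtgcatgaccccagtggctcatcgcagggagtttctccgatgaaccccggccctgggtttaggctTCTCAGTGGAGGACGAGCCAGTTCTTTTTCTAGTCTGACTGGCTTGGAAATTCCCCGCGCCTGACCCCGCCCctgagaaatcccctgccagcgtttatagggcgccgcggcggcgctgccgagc
Hif1a: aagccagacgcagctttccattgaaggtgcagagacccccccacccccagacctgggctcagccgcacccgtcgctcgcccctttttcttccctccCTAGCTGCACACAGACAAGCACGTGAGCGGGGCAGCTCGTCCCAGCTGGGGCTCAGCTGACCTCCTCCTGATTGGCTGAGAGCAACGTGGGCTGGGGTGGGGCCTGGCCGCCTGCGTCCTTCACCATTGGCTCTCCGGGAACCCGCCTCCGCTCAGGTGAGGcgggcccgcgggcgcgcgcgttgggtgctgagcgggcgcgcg
Id3: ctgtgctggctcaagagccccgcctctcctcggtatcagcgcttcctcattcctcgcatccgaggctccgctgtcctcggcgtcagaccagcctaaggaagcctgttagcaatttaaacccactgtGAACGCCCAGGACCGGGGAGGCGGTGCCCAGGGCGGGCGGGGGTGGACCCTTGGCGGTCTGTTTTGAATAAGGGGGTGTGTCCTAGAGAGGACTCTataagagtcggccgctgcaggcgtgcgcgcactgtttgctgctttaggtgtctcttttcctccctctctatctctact

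In each of the 9 windows the capitals form 1 stretch at or just before the start site. This does not hold for every member in a promoter window. The bases shared by the 3 lists ran from −250 to −131 at Kmt2a, −250 to −110 at Fas and −200 to −109 at Dot1l, which are not printed. The printed capitals run from −50 to 49 in Rpl37a, −96 to −7 in Heatr3, −139 to 15 in H4c3, −112 to 0 in Psmc5 and −78 to 8 in Bub1. In the signalling genes they run from −48 to 21 in Junb, −74 to −3 in Nfkbia, −154 to 7 in Hif1a and −124 to −29 in Id3. The capitals of Junb hold a CCAAT box and a TATA box, and those of Bub1 and H4c3 hold a CCAAT box. Those of Heatr3 and Psmc5 hold a GC box and an NRF1 match, those of Rpl37a an NRF1 match, those of Nfkbia and Id3 a GC box, and those of Hif1a a CCAAT box and an E-box. The motif letters are given with their shares below. Such a match describes letters only and shows no bound factor. A motif not named here can still be present with other letters or another length than those searched.

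The unstimulated untreated list was the shortest. On chromosomes 1 to 19 and X it held 6519 peaks, against 7929 in unstimulated phenelzine, 10405 in stimulated untreated and 9322 in stimulated phenelzine-treated cells. The background pileup that each list implied was also lowest there, at 0.392 against 0.471, 0.493 and 0.489. Regions missing from 1 list alone followed the order of list length: 944 lacked only the unstimulated untreated peak, 566 the unstimulated phenelzine peak, 362 the stimulated phenelzine peak and 181 the stimulated untreated peak. When every list was trimmed to its 6519 strongest peaks, the 4 counts were 402, 410, 456 and 376 in the same order. With equal lists, the class missing from resting untreated cells thus was not the largest. The 402 regions were all among the 944. Trimming left the unstimulated untreated list whole and only took peaks from the others, so this overlap followed nearly entirely from the procedure. With −log10 q of at least 2 in every list, 605 regions met the rule, 399 of them among the 944, and with at least 3, 497 did, 108 of them among the 944.

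**Figure D1:**
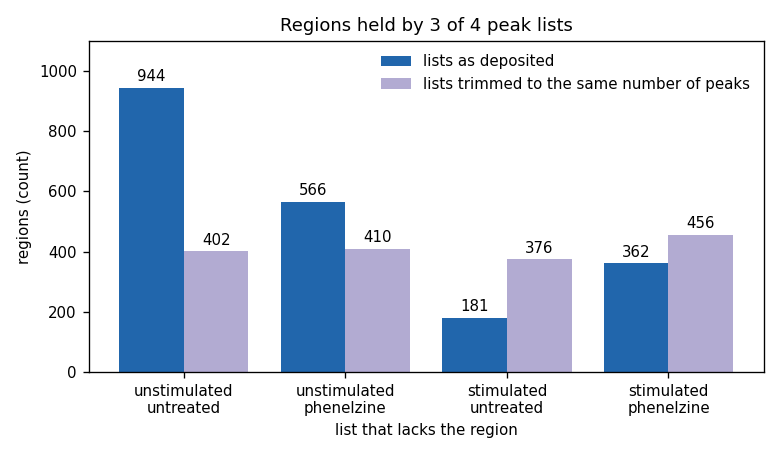
Number of regions (y axis) held by 3 of the 4 peak lists, by the list that lacks the region (x axis), for the lists as deposited (dark bars) and trimmed to the same number of peaks (light bars). The bar for unstimulated untreated cells falls from 944 to 402 with equal lists, beside 410, 376 and 456 for the others.

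The members did not lie at the edges of unstimulated untreated peaks. The gap to the nearest such peak was at least 235 bp and its median was 50195.5 bp. A peak of the unstimulated untreated list lay within 1 kb of 25 members (2.65%, exact 95% interval 1.72 to 3.88) and within 20 kb of 239 (25.3%, 22.6 to 28.2). For regions missing from 1 of the other lists alone, a peak of that list lay within 1 kb in 4.42% (unstimulated phenelzine), 4.42% (stimulated untreated) and 8.01% (stimulated phenelzine). Intervals here cover counting error among regions only, not variation between libraries.

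Members just inside the rule were those nearest to an unstimulated untreated peak. The member at Ing5, which encodes a subunit of histone acetyltransferase complexes, lay 235 bp away (chr1:93803762-93804015), with −log10 q of 1.41 in unstimulated phenelzine, 2.75 in stimulated untreated and 3.53 in stimulated phenelzine-treated cells. Members at Zfp868, Zfpm1, Slc35f5 and Heatr3 lay 265, 292, 310 and 351 bp away. Just outside the rule, regions of all 4 lists shared as few as 23, 26, 27, 27 and 32 bp with an unstimulated untreated peak. The weakest unstimulated untreated peaks that kept a region out had −log10 q of 1.01, 1.07, 1.11, 1.12 and 1.13. Of the 4085 regions of all 4 lists, 421 (10.3%) had an unstimulated untreated peak with −log10 q under 2.

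The peaks of the members were weaker than those of regions held by all 4 lists. The values are the −log10 q and fold enrichment over local background that the authors' peak caller gave each peak in its own list. They depend on the depth of that library, so values of a member in the 3 lists stand side by side below and are not compared between lists. Median −log10 q in the members was 2.42 in unstimulated phenelzine, 2.79 in stimulated untreated and 2.47 in stimulated phenelzine-treated cells. In the 4085 regions of all 4 lists the medians were 3.61, 4.78 and 3.94 in these lists and 3.59 in unstimulated untreated cells. Median fold enrichments of the members were 4.68, 4.78 and 4.65. The typical member ranked near the middle of each list, at a median percentile of 43.0, 46.8 and 44.3.

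**Figure D2:**
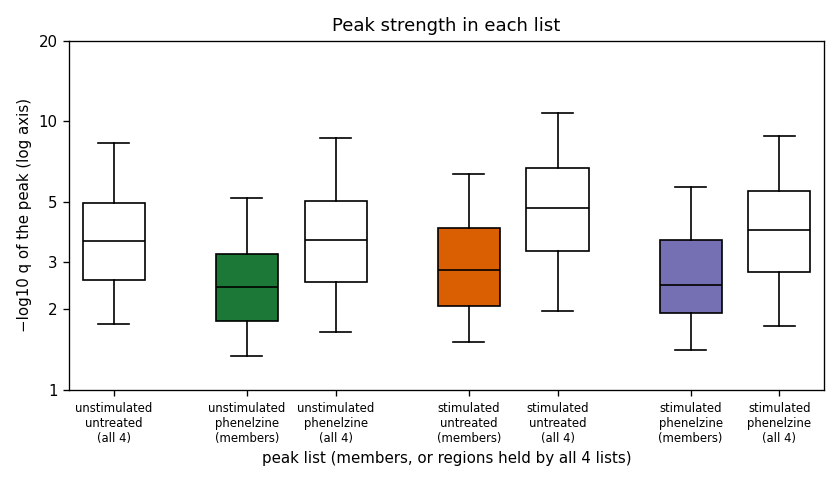
−log10 q of peaks (y axis, log scale) in each list (x axis), for the 944 members (filled boxes) and the 4085 regions of all 4 lists (open boxes), with boxes from the lower to the upper quartile, a line at the median and whiskers from the 5th to the 95th percentile. The medians of the members, 2.42, 2.79 and 2.47, lie below those of regions of all 4 lists in the same library, 3.61, 4.78 and 3.94.

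A minority of members had strong peaks throughout. In all 3 holding lists, −log10 q reached 2 in 399 members (42.3%), 3 in 108 (11.4%), 4 in 29 and 5 in 11. The peaks of the 3 lists shared at least 1 base in 907 members, over a median of 80 bp, and did not in 37, which are joined by a chain of overlaps. Fold enrichments of the same member in different lists followed each other weakly, with Spearman's rho across members of 0.316 between unstimulated phenelzine and stimulated untreated, 0.308 between the 2 phenelzine lists and 0.304 between the 2 stimulated lists (n = 944 regions that share their libraries, given as a description). Members were 201 bp wide at the median, with quartiles of 156 and 291.25 bp and a range of 80 to 865 bp, against 277 bp for regions of all 4 lists and 94 bp for regions of 1 list.

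A majority of the members lay at a gene end. Of the 944, 525 (55.6%, exact 95% interval 52.4 to 58.8) lay within 1 kb of either end of a protein-coding gene. Over all 15237 regions the share was 44.5% (43.7 to 45.3). The share was 77.0% (75.7 to 78.3) in regions of all 4 lists and 22.3% (21.3 to 23.4) in regions of 1 list. It was 58.3% (54.1 to 62.4), 64.1% (56.6 to 71.1) and 56.1% (50.8 to 61.3) in regions missing from unstimulated phenelzine, stimulated untreated and stimulated phenelzine cells alone. The intervals of the members and of the other classes of 3 lists overlapped, and both the single-list and the 4-list class lay outside them. Gene-end members had stronger peaks than the other 419, with median −log10 q of 2.63, 3.07 and 2.80 against 2.11, 2.50 and 2.22 in unstimulated phenelzine, stimulated untreated and stimulated phenelzine cells.

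Many members lay on start sites. Of the 926 members on chromosomes with RefSeq promoter windows, 463 (50%, 46.7 to 53.3) had their midpoint within 250 bp of a start site. The share was 38.3% (37.5 to 39.1) over all regions and 68.1% (66.6 to 69.5) in regions of all 4 lists. In regions missing from unstimulated phenelzine, stimulated untreated or stimulated phenelzine cells alone the shares were 50%, 55.3% and 48%, so the members lay among the other classes of 3 lists. Within 100 bp the shares were 38.8% (35.6 to 42.0) in the members and 45.5% (43.9 to 47.1) in regions of all 4 lists. Among midpoints within 250 bp, the median position was −42 bp in the members and −56.5 bp in regions of all 4 lists. Of 467 members that overlapped a promoter window, 76 (16.3%, 13.0 to 19.9) overlapped windows of 2 genes on opposite strands, as at Psmc5 and Ftsj3. That share was 17.7% (16.7 to 18.7) over all regions and 22.4% (20.8 to 23.9) in regions of all 4 lists. It was 17.0%, 12.2% and 18.5% in the other classes of 3 lists.

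**Figure D3:**
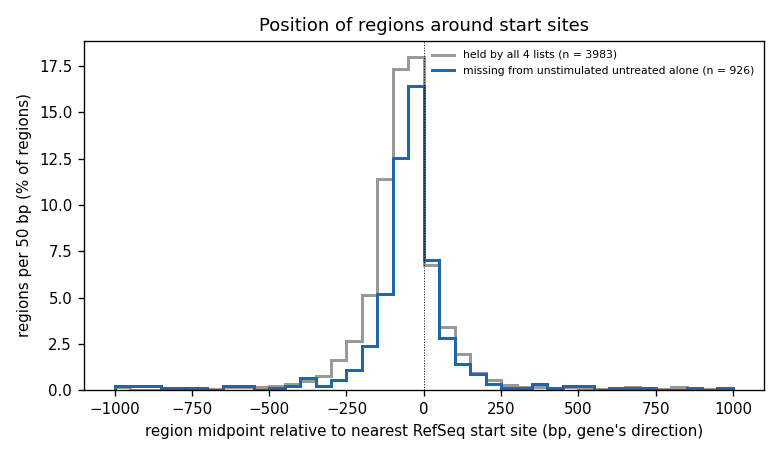
Percent of regions per 50 bp (y axis) by the position of the region's midpoint relative to the nearest RefSeq start site, in the direction of the gene (x axis), for 926 members and 3983 regions of all 4 lists. Both outlines peak just before the start site, and the members have the lower share near it, 50% against 68.1% within 250 bp.

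The promoters with a member had the base composition of CpG-rich promoters. Motifs were searched on both strands in 21019 windows of protein-coding genes, of which 536 held a member and 3466 a region of all 4 lists, with no window holding both. The median window held 22 CpG dinucleotides with a member, 24 with a region of all 4 lists and 13 over all windows, and GC content was 61.0%, 62.7% and 56.7%. An Ets motif (CCGGAAG) was in 26.3% (22.6 to 30.3), 26.9% and 11.7% of windows. An NRF1 motif (GCGCNNGCG) was in 31.3% (27.4 to 35.5), 38.1% and 16.5%, and a GC box (GGGCGG) in 68.1% (64.0 to 72.0), 74.9% and 46.6%. A CCAAT box (CCAAT) was in 45.7% (41.4 to 50.03), 52.7% and 38.5%. The member promoters thus held these general motifs more often than the average promoter, and an NRF1 motif, a GC box and a CCAAT box less often than promoters with a region of all 4 lists, outside the counting interval in each case. The low shares of the NRF1 motif and the CCAAT box were not particular to the members. In windows of regions missing from unstimulated phenelzine, stimulated untreated and stimulated phenelzine cells alone, the CCAAT box was in 41.8%, 35.5% and 35.2%. The NRF1 motif was in 25.6% (21.0 to 30.7), 31.8% (23.3 to 41.4) and 29.0% (22.7 to 36.0). The GC box was in 70.4% (65.2 to 75.3), 69.1% (59.6 to 77.6) and 77.2% (70.6 to 82.9). The GC box intervals, and that of NRF1 for stimulated untreated cells, included the share in promoters with a region of all 4 lists.

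As searched, motifs of stimulus-dependent factors were in few of these promoters. Only the letters given were counted, so sites with other letters or another length are not in these shares. An AP-1 motif (TGANTCA) was in 4.10% (2.59 to 6.15) of windows with a member, 3.72% with a region of all 4 lists and 7.04% of all windows. A kB motif (GGGANTTCC), which NF-kB binds, was in 4.66% (3.04 to 6.81), 2.63% and 1.86%, and a cAMP response element (TGACGTCA) in 6.16% (4.28 to 8.54), 4.76% and 2.26%. For both motifs the share in windows with a region of all 4 lists was 2.63% (2.12 to 3.21) and 4.76% (4.08 to 5.52), so the intervals overlapped. Windows of regions missing from stimulated phenelzine cells alone held the kB motif in 4.15% (1.81 to 8.0) and the cAMP response element in 9.84% (6.03 to 14.9), so these shares are not particular to the members. A TATA box (TATAAA) was in 5.22% (3.50 to 7.46), 4.67% and 12.7%, an E-box (CACGTG) in 11.8%, 12.0% and 7.91%, and a RUNX motif (TGTGGTT) in 2.61%, 3.0% and 4.73%. A YY1 motif (AAGATGG) was in 10.6%, 8.92% and 6.28%, and a ZBTB33 motif (TCTCGCGA) in 2.99%, 4.01% and 1.42%.

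The members with the strongest peaks lay mainly at gene ends. Members were ranked by the lowest −log10 q over the 3 holding lists, and of the first 20, 16 lay at a gene end. Of all 944 members, 55.6% did. The first was at the start of Rpl37a (chr1:72711204-72711336), with −log10 q of 10.2 in unstimulated phenelzine, 10.5 in stimulated untreated and 8.38 in stimulated phenelzine-treated cells and fold enrichments of 8.73, 8.91 and 7.90. No unstimulated untreated peak lay within 117510 bp of it, and it ranked at percentiles 98.5, 97.7 and 97.1 of the 3 lists. The third was at Gpaa1 and Exosc4 (chr15:76331150-76331309), which encode a subunit of the GPI transamidase and a subunit of the RNA exosome, with −log10 q of 7.86, 7.29 and 6.88. The fourth was at Heatr3 (chr8:88137773-88137908), with 7.52, 6.45 and 6.24, where an unstimulated untreated peak lay 351 bp away. The 9 peaks of these 3 members lay between percentiles 88.2 and 98.5 of their lists.

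Other gene-end members of the first 20 are grouped here by function and not in order of rank. The first 20 were not counted by function against all genes. Eef1e1 and Bub1, for example, ranked 19 and 20, after Dnttip1 (14), Cog2 (15) and Tmem94 (18). The member at H4c3 (chr13:23698408-23698644) had −log10 q of 5.51 in unstimulated phenelzine, 8.38 in stimulated untreated and 8.89 in stimulated phenelzine-treated cells. The member shared by Psmc5 and Ftsj3 (chr11:106255866-106256197), the second of which encodes an rRNA processing factor, had 6.28, 5.87 and 5.41. These genes make histones, proteasomes and ribosomes. The member at Sars, the seryl-tRNA synthetase, had 5.43, 5.40 and 5.29. The member at Eef1e1, a subunit of the aminoacyl-tRNA synthetase complex, had 6.46, 8.88 and 4.56. Rtf1 and Iws1 encode factors of transcription elongation. The Rtf1 member had 5.22, 6.39 and 5.85, and the Iws1 member 8.74, 7.22 and 4.86. The member at Bub1 (chr2:127831828-127831962) had 5.67, 4.52 and 6.89.

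The remaining gene-end members of the first 20 were at Rapgef2, Rnf41, Dnttip1, Cog2, Pkd2l2 and Tmem94. Their −log10 q lay between 4.68 and 8.55. The 4 members away from gene ends lay inside Trim50 (chr5:135357723-135357818, with 7.91, 9.32 and 7.96), 7822 bp from Pllp, 65159 bp from Chd2 and 1650 bp from Srl. The highest single value of any member was at Caap1 (chr4:94556746-94556913), named after its values were seen, with −log10 q of 8.20, 3.87 and 13.5 and a fold enrichment of 10.1 in stimulated phenelzine cells.

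At the level of genes, 628 of 21627 protein-coding genes (2.90%) had a member at a gene end. Of the 7542 genes with a gene-end region in any list, these were 8.33%. A member lay in the locus, the gene body with 20 kb on either side, of 1546 genes (7.15%). Of the 628 genes, 589 (93.8%, exact 95% interval 91.6 to 95.5) had no other gene-end region in the unstimulated untreated list, and 39 had one. The share was 92.5%, 90.9% and 91.4% for genes at regions missing from unstimulated phenelzine, stimulated untreated and stimulated phenelzine cells alone. Within the locus, 766 of the 1546 genes had another unstimulated untreated region and 780 had none. With lists of equal length, 321 genes had a member at a gene end and 777 in the locus.

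Genes of T cell signalling, T cell fate, LSD1 complexes and histone modification were followed in 14 lists of 257 genes. Of the 127 with a gene-end region in any list, 14 (11.0%) had a member there, against 8.33% of all genes. In the locus, 31 of 257 (12.1%) had a member, against 7.15%, from 35 distinct regions, and with lists of equal length 17 had one. With flanks of 10 kb the shares were 10.1% and 5.42%, and with 50 kb 16.7% and 11.5%. The lists were chosen with earlier results of these data known, so the difference is given as a description. The list genes also had a gene-end region of any kind more often, 127 of 257 against 7542 of 21627 genes. The locus shares are not adjusted for this, and some of the locus members lay at the ends of neighbouring genes.

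Immediate early genes, transcribed within minutes of a stimulus, had members at 2 of the 18 with any gene-end region, Junb and Ier3. Over all such genes the share was 8.33%. In the locus, 5 of 23 had a member, adding Fosb, Myc and Nr4a3, beside 7.15% of all genes. At Junb the member (chr8:84978684-84978900) lay on the start site printed above, with −log10 q of 2.80 in unstimulated phenelzine, 6.52 in stimulated untreated and 2.78 in stimulated phenelzine-treated cells. Its nearest unstimulated untreated peak lay 1967 bp away. At Ier3, a stress response gene (chr17:35821496-35821685), the values were 1.28, 1.94 and 3.24, with an unstimulated untreated peak 1353 bp away. Both Junb and Ier3 thus had another gene-end region in resting untreated cells. The AP-1 gene Fosb held its member 1299 bp inside the gene (chr7:19308586-19308819), with 2.86, 2.82 and 3.18. These 3 genes had 2, 4 and 2 unstimulated untreated regions in their loci.

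The member near Myc, the growth regulator, lay 2208 bp outside the gene (chr15:61992569-61992747) with −log10 q of 4.62 in unstimulated phenelzine, 2.00 in stimulated untreated and 1.95 in stimulated phenelzine-treated cells. The member near the orphan nuclear receptor gene Nr4a3 lay 1536 bp outside it (chr4:48043385-48043542), with values of 2.79, 2.84 and 2.94. The Nr4a3 locus had 0 regions in unstimulated untreated cells and 1, 3 and 2 in the other lists. Of the 23 immediate early genes, 13 had a gene-end region in unstimulated untreated cells, 10 in unstimulated phenelzine, 16 in stimulated untreated and 13 in stimulated phenelzine-treated cells.

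In the NF-kB list, members were at 2 of 13 genes with a gene-end region, beside 8.33% of all such genes. They lay in 5 of 20 loci, beside 7.15% of all genes. At Nfkbia (chr12:55492600-55492732) the values were 2.97 in unstimulated phenelzine, 1.91 in stimulated untreated and 1.75 in stimulated phenelzine-treated cells, with an unstimulated untreated peak 559 bp away. Nfkbib, a second inhibitor of NF-kB, shares its member with the deacetylase gene Sirt2 (chr7:28766517-28766814), with 3.04, 4.11 and 2.64 and no unstimulated untreated peak within 24281 bp. Members also lay inside Nfkbiz, an inducible co-regulator of NF-kB (chr16:55822104-55822591, with 3.02, 2.90 and 3.83), and inside the adaptor gene Traf2 (chr2:25534286-25534453, with 3.40, 7.42 and 3.08). In the Nfkb2 locus the member lay at the neighbouring genes Fbxl15 and Psd, 15753 bp away. Both gene-end members of the list were at inhibitor genes, and 2 genes are too few to set inhibitor genes apart from subunit genes.

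Upstream of these factors, the calcineurin and NFAT list had members at 0 of 12 gene ends, beside 8.33% of all genes. Members lay in 2 of 14 loci, beside 7.15%. These lay inside Itpr1, the calcium release channel of the endoplasmic reticulum, with −log10 q of 2.06, 4.06 and 4.85, and inside Stim1, its calcium sensor, with 4.72, 3.66 and 1.47. In the list of protein kinase C, RasGRP and MAP kinases, 2 of 17 genes had a member at an end, beside 8.33% of all genes. Mapk3, the kinase ERK1 (chr7:126759447-126759579), had 3.24, 2.04 and 1.65, and Prkce, a protein kinase C isoform, had 2.97, 1.91 and 1.75. Both members lay just outside the gene, 47 and 85 bp from its outer limit. Their midpoints lay at −6901 and 75717.5 bp from the nearest start site with a RefSeq promoter window. Such windows cover only 79.9% of genes, so a nearer start site can be missing. As the gene table has no strand, it was not settled whether these gene ends are starts. The Map2k2 locus held a member 12624 bp from the gene, with 4.56, 7.22 and 2.56.

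T cell fate genes were at members in a few cases. Foxo1, a factor of naive T cells (chr3:52268236-52268331), had −log10 q of 3.97 in unstimulated phenelzine, 2.11 in stimulated untreated and 3.49 in stimulated phenelzine-treated cells. Id3 (chr4:136143688-136143811) was a weak member, with 1.09, 1.85 and 1.55. Of all genes with a gene-end region in any list, 8.33% had a member there. In the list of 16 naive, memory and quiescence genes, 7 had such a region, and the 2 with a member there were Foxo1 and Id3. Neither locus held an unstimulated untreated region.

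Among effector transcription factors, members were at 1 of 4 gene ends, that of Bhlhe40, beside 8.33% of all genes. They lay in 2 of 12 loci, beside 7.15%. The Bhlhe40 member was the broadest of the 944, at 865 bp (chr6:108659804-108660668), with −log10 q of 3.09, 4.95 and 1.87. Hif1a had 2 members in its locus. The first overlapped a RefSeq promoter window 6162 bp inside the gene's outer limit (chr12:73907486-73908033), with 4.77, 7.23 and 3.37. The second, at the neighbouring gene Snapc1, had 3.73, 4.02 and 4.97. The Hif1a locus had 0 regions in unstimulated untreated cells and 3, 2 and 3 in the other lists.

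**Figure D4:**
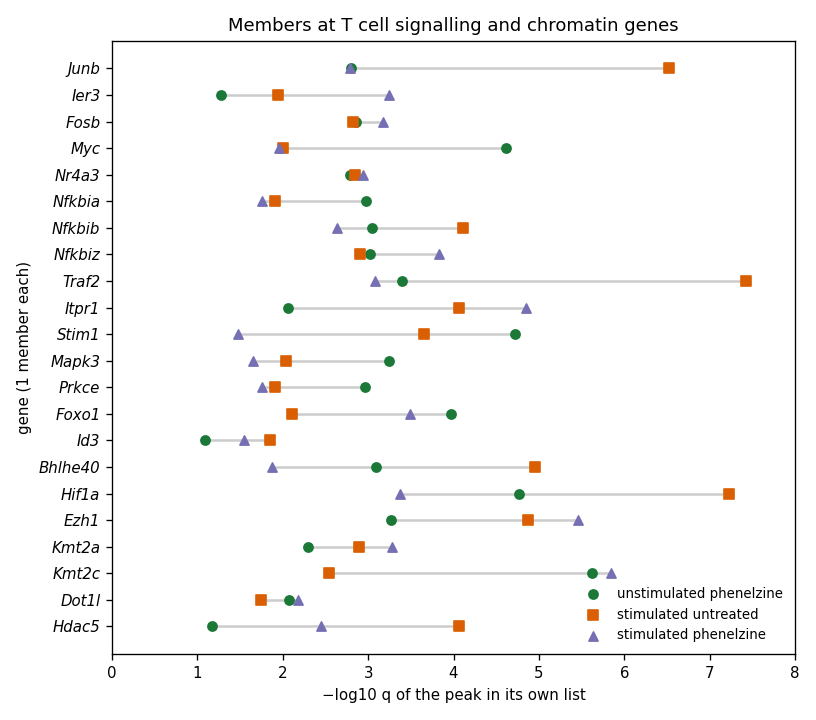
−log10 q of the peak in its own list (x axis) for 1 member each at or near 22 genes of T cell signalling, T cell fate and histone modification (y axis), by holding list (symbols); grey lines span the 3 values. Each value belongs to its own library and is not on a common scale; the span of the 3 values runs from 2.78 to 6.52 at Junb and from 1.95 to 4.62 at Myc.

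Genes of T cell function had few members or none, in lists too short to set a low count apart from the 7.15% of all loci. No member lay in the locus of any of 16 cytokine and chemokine, 12 inhibitory receptor or 18 lymphoid lineage and STAT genes. Few of these had any gene-end region: 2 cytokine, 4 inhibitory receptor and 10 lineage genes. The 14 cytotoxic granule, 14 activation receptor and 20 T cell receptor genes each had 1 locus with a member, those of Ctsw, Tfrc and Lat, and in each case it lay at the end of a neighbouring gene (Mus81, Tnk2 and Spns1). Of 18 genes of LSD1 complexes and monoamine oxidases, the targets of phenelzine and their partners, 8 had a gene-end region and 0 had a member there, beside 8.33% of all genes. The 1 member in a locus of that list, Zmym3, lay at the end of Nono, 8064 bp away.

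Histone-modifying enzymes outside LSD1 complexes had members at 5 of 22 genes with a gene-end region, beside 8.33% of all such genes. They had members in 8 of 38 loci, beside 7.15% of all genes. Kmt2a and Kmt2c encode methyltransferases that act on the residue of histone H3 that LSD1 demethylates. The Kmt2a member (chr9:44881385-44881616) had −log10 q of 2.30, 2.90 and 3.28 and the Kmt2c member (chr5:25499612-25499763) 5.62, 2.54 and 5.84 in unstimulated phenelzine, stimulated untreated and stimulated phenelzine cells. Ezh1, a Polycomb methyltransferase of histone H3 (chr11:101226401-101226515), had 3.27, 4.88 and 5.46. The deacetylase gene Hdac5 had 1.17, 4.07 and 2.45. Dot1l, another methyltransferase of histone H3, had 2 members in its locus, with 2.07, 1.74 and 2.17 at the start and 4.30, 2.79 and 2.16 at 3299 bp. In the whole list, gene-end regions were found for 11 genes in unstimulated untreated, 16 in unstimulated phenelzine, 20 in stimulated untreated and 17 in stimulated phenelzine-treated cells.

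Genes of general cell machinery made up larger groups, with shares on both sides of the background. A short list of housekeeping genes had members at 0 of 11 genes with a gene-end region. Cytosolic ribosomal proteins had members at 9 of 72 genes with a gene-end region (12.5%, against 8.33% of all genes). The 4 with the strongest peaks were Rpl37a, Rpl7a (−log10 q of 2.96, 6.20 and 2.94), Rps13 (3.02, 5.13 and 4.48) and Rpl11 (2.35, 2.38 and 4.08). Translation factors had members at 10 of 59 (16.9%), of which Eef1akmt4 and Eef1akmt4-ece2 share 1 region, and these included Eef1e1, Eef1b2 (3.69, 5.47 and 3.71), Eif2b5 (2.75, 2.83 and 3.95) and Eif3h (2.56, 2.03 and 2.78). Mitochondrial ribosomal proteins had members at 4 of 53 (7.55%), with the strongest at Mrps18a (6.21, 3.26 and 6.91).

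Oxidative phosphorylation subunits had members at 9 of 65 genes (13.8%), among them Atp5mpl (6.17, 6.57 and 3.8), Ndufs1, which shares its region with Eef1b2, Atp5k (5.50, 3.62 and 4.99) and Atp5pb (2.71, 5.68 and 3.62). Proteasome subunits had members at 5 of 33 (15.2%): Psmc1, Psmc5, Psmd2, Psmd6 and Psmd12. Lower shares were seen in splicing factors and hnRNPs, with members at 2 of 62 genes (3.23%, Sf3a3 and Snrpb), and in cyclins and cyclin-dependent kinases, with 0 of 35. Ubiquitin-conjugating enzymes had 0 of 20 and DnaJ and heat shock chaperones 3 of 45 (6.67%). With 1 library per condition these shares are counts beside the 8.33% of all genes and carry no test.

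**Figure D5:**
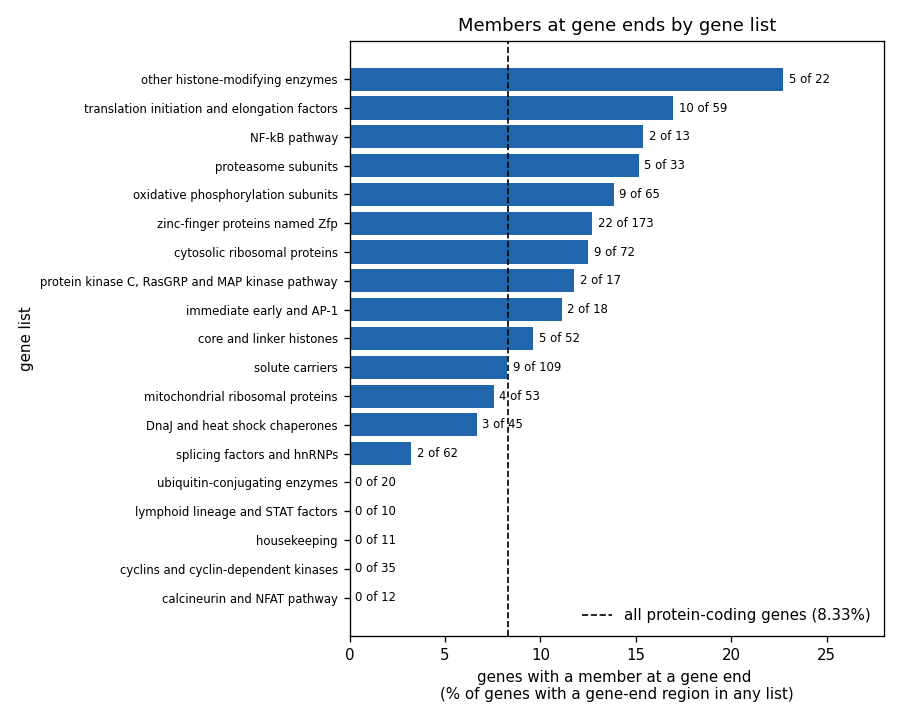
Percent of genes with a member at a gene end (x axis), out of the genes with a gene-end region in any list, for each gene list (y axis) with at least 10 such genes; labels give the counts and the dashed line the 8.33% of all protein-coding genes. Histone-modifying enzymes outside LSD1 complexes (5 of 22) and translation factors (10 of 59) lie above the line, and splicing factors (2 of 62) and cyclins (0 of 35) below it.

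The larger families lay near the background or a little above it. Zinc-finger genes named Zfp had members at 22 of 173 (12.7%) and solute carriers at 9 of 109 (8.26%). Replication-dependent and other histone genes had members at 5 of 52 (9.62%): H4c3, H4c8, H4c14, H2bc6 and H1f4. Their clusters put 23 histone genes within 20 kb of a member, but these were only 6 distinct regions. MHC genes of the H2 group had 0 of 8.

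Away from gene ends, 419 members remained, 222 (53.0%) inside a protein-coding gene and 197 between genes. The median distance to the nearest gene end was 19343 bp, and 123 lay more than 50 kb away. Of the 419, 48 lay within 1 kb of an end of a gene that codes for no protein, and 35 of these were at long noncoding RNA genes. One was at Malat1, an abundant nuclear RNA (chr19:5802645-5802801), with −log10 q of 2.04, 4.37 and 2.90 and an unstimulated untreated peak 802 bp away.

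Transfer RNA genes stood beside some of the strongest distal members. The member ranked seventh overall (chr8:94704064-94704260, with −log10 q of 6.44, 5.30 and 8.07) lay at n-TLcag4 and n-TLcag5. The member at chr1:171037967-171038140 (4.00, 9.69 and 3.38), in the locus of the myeloid gene Fcgr3, lay within 1 kb of the 3 tRNA genes n-TGtcc2, n-TLcag3 and n-TDgtc4. Of all 944 members, 5 (0.530%) lay within 100 bp of a tRNA gene, against 0.636% of regions of all 4 lists and 0.532% of all regions, so tRNA genes were no more frequent among the members.

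The locus with the most members was that of Baz2b, which encodes a bromodomain protein, with 3 members. It had 0 regions in unstimulated untreated cells and 3, 4 and 3 in the other lists. Another 88 genes had 2 members in the locus and 1457 had 1. Dock9, an exchange factor for Cdc42, and Ap3m1, a subunit of an adaptor complex, were among those with 2 members at their gene ends, and the death receptor gene Fas was among those with 2 members in its locus; all 3 are named after their values were seen. At the Fas start the member (chr19:34290326-34290649) had −log10 q of 1.62, 1.53 and 2.74. The members were otherwise scattered, with a median distance of 508168 bp to the next member, 30 with another within 10 kb and no more than 3 in any 100 kb.

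Among the markers of other cells, 1 of the 5 myeloid genes with a gene-end region had a member there, beside 8.33% of all such genes. It was S100a8 (chr3:90668854-90669108), which encodes a calcium-binding protein of neutrophils, with −log10 q of 1.30, 1.75 and 3.17. In the locus, 3 of the 13 myeloid genes had a member, beside 7.15% of all genes. Fcgr3 and Cd68 had members in their loci, the second at the neighbouring gene Mpdu1. B cell, NK cell, CD4 and regulatory T cell, epithelial and stromal markers had none. Of these lists, only 1 CD4 or regulatory T cell gene and 1 epithelial gene had any gene-end region. They are too short to set none apart from the shares of all genes. By chromosome, members numbered from 18 on chromosome 18 and on X to 83 on chromosome 2. There were 16.8 members per 100 regions of all 4 lists on chromosome 5 and 40.9 on X, the lowest and highest values. The value of X rests on 18 members and 44 regions of all 4 lists. As a share of all regions, the lowest value was 4.80% on chromosome 18 and the highest 8.69% on chromosome 14, with 7.96% on X.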

How the data were processed

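ATAC-seq was carried out on 4 libraries, 1 per condition. Per the submitters' processing notes, the tools were Trimmomatic 0.33, Bowtie2 2.2.5, MACS2, Picard and HOMER, with mm10 (GRCm38) as the genome. Their remaining versions and settings were not given in the sources used here. The peak names carry the tag less120, whose meaning no source spells out. If it is a limit on fragment length, the lists describe short fragments only.

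The authors deposited 1 list of broad peaks per library, each called separately. The deposited score equalled the −log10 q-value multiplied by 10 and rounded down in at least 99.98% of peaks of each list. The deposited fold enrichment was a ratio of pileup to local background, and the authors gave the p-value and q-value of each peak as −log10. All are the authors' values for a peak in its own list and served only to describe peaks and rank them within a list. Read totals are not in the lists, so depth was described by the background pileup, solved from the commonest combination of fold and −log10 p in each list, which 107 to 190 peaks shared. A low peak in a shallow library can miss the caller's threshold, so absence from a list is not absence of accessibility.

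Coordinates are mm10, counted from 1. Peaks were merged where they shared at least 1 bp, and where a list had several peaks in a region, the one with the highest −log10 q gave its value. Genes were the 21627 protein-coding genes of RefSeq for this build. As that table has no strand, a gene-end window of 1 kb around either end took the place of the promoter. The promoter windows of RefSeq covered 79.9% of these genes and none on chromosome 18. Sequences of members outside promoter windows were not analysed here. Intervals are exact (Clopper-Pearson) 95% intervals. No test between conditions and no p-value was computed, since each condition has 1 library. The merging step was tested on simulated data. The computation used Python 3.11.15 with pandas 2.3.3, numpy 2.4.6 and scipy 1.17.1.

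Members and gene lists were chosen with earlier results of these data known. Named genes were those of the 20 members with the highest lowest −log10 q over the 3 holding lists, list genes with a member at an end or in the locus, the genes with the most members, and up to 4 examples per family, with the few others marked as chosen after their values were seen. Alternatives were a −log10 q minimum of 2 or 3, equal list lengths, merging across gaps of up to 100 bp, a base shared by all 3 peaks, no unstimulated untreated peak within 1 kb, and other window sizes.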

Additional observations from a re-analysis of the deposited data

How the results depend on the processing

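The number of members depended on the peak threshold and the list length. It was 605 with −log10 q of at least 2 in every list, 497 with at least 3, 402 with the same number of peaks in every list, and 399 with at least 2 in the 3 holding lists only. In these settings 399, 108, 402 and 399 of the 944 were still members. With equal lists and with the holding lists restricted, no unstimulated untreated peak was removed, so their full overlap with the 944 followed nearly from the procedure. The first 20 were still members in each of these settings, which their ranking fixed in advance. Their −log10 q was at least 4.52 in every holding list, above the cuts of these settings. The share at gene ends was 67.4%, 81.3%, 66.7% and 67.7%, and was 51.8% with a window of 0.5 kb and 60.1% with 2 kb. Genes with a member at a gene end numbered 321 with equal lists and 321 with the holding lists restricted. Genes with a member in the locus numbered 777, 766 and, with a flank of 50 kb, 2492. List genes with a member in the locus numbered 12 with −log10 q of at least 3, 17 with equal lists and 18 with the holding lists restricted. The share with an unstimulated untreated peak nearby was 1.65% and 1.21% at the higher thresholds, 1.504% with the holding lists restricted and 6.57% within 5 kb. The other 28 of 50 values stayed within 1.5 times the main count, or, for shares, within the main interval. With no unstimulated untreated peak allowed within 1 kb, 919 members remained and the one at Heatr3, among the first 20, did not. No paired analysis was possible because each condition has 1 library and no test was made. Read depth per region is unknown, so a weak peak and an absent one cannot be told apart.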
